A study of Homo sapiens with 6 samples.

Results

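The transcripts described here are the long intergenic and antisense rows of the gene table measured in 22Rv1-ABHD5 cells. 22Rv1 is a human prostate cancer line that grows after castration, and these cells hold a lentiviral transgene from which Dox turns on ABHD5, the coactivator of the triglyceride lipase ATGL. Members were the rows whose symbol begins with LINC or ends in -AS1, -AS2, -IT1 or -OT1 and whose mean was at least 10 raw counts over the 6 libraries. Of 27470 gene rows, 2467 had such a symbol and 333 reached that mean. These were 98 LINC rows, 221 -AS1 rows, 9 -AS2 rows, 4 -IT1 rows and 1 -OT1 row, and the last 4 kinds are called antisense rows below. Not all of them lie on the strand opposite to the sense gene. The mean over both conditions chose the members, and the difference between the conditions was not used. A row low in 1 condition could still enter through its counts in the other, as 48 members did with Dox and 10 without.

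Both conditions were the same transgenic cells, cultured for 48 h without Dox (the samples labelled Control, 3 libraries) or with Dox (the samples labelled OE, 3 libraries). Libraries of the parent cells with Dox were not analysed here, so Dox and ABHD5 cannot be told apart. The labels do not say that the libraries came from separate cultures, so p-values measure only the spread between these libraries. All 10 prostate luminal markers looked for had enough counts to be tested. Of these, 5 were lower with Dox, where 13.7% of all genes tested were lower. The 5 included KLK2, KRT18 and EPCAM, with log2 fold changes of -1.69, -0.57 and -0.52. EPCAM lost its call without the third control library (log2 fold change of -0.44, adjusted p = 0.0511). Of 13 markers of other cells, 5 had no count in any library (CD3E, CHGA, KRT5, PECAM1 and VWF) and 1, COL1A1, had enough counts to be tested. COL1A1 was called higher with a log2 fold change of 1.22, a call lost without the second or the third control or the first or the third Dox library (adjusted p up to 0.166).

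Long noncoding RNAs are transcripts that are spliced and polyadenylated much like messenger RNAs but hold no long reading frame. Many are turned over in the nucleus by the RNA exosome, and most are made in few copies. An antisense RNA is transcribed from the strand opposite to a named sense gene: some start next to the sense promoter and run away from it, others start inside the sense gene and run back across its exons, and others begin beyond its far end. Intergenic RNAs, named LINC until a function is known, lie between coding genes, and several have since been renamed or found to encode small proteins.

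The 4 antisense rows below, whose results are given later, start beside the start of their sense gene, and their promoter windows are printed so that the arrangement can be seen. Each window is the RefSeq sequence of GRCh38.p14 (hg38) from 250 bases before to 50 bases after the start of the antisense RNA, read on its own strand, which is the minus strand for all of them. FBXL19-AS1 is chr16:30923220-30923519, SAP30L-AS1 is chr5:154445773-154446072, SRRM2-AS1 is chr16:2752551-2752850 and MAN1B1-AS1 is chr9:137086768-137087067. Capitals mark the letters CCAAT (NF-Y box) and GGGCGG (GC box) on either strand, which appear as ATTGG and CCGCCC on the other.
FBXL19-AS1: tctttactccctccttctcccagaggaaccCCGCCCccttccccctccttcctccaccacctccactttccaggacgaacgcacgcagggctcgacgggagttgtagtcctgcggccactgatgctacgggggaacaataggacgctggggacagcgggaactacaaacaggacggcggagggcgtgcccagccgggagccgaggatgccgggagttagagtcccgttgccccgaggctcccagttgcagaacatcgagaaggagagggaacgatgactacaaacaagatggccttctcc
SAP30L-AS1: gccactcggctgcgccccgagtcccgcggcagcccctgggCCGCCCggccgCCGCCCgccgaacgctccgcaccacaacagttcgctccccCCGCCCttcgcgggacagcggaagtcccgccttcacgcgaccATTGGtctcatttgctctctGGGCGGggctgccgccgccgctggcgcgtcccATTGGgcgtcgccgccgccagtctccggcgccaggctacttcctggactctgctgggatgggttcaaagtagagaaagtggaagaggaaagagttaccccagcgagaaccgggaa
SRRM2-AS1: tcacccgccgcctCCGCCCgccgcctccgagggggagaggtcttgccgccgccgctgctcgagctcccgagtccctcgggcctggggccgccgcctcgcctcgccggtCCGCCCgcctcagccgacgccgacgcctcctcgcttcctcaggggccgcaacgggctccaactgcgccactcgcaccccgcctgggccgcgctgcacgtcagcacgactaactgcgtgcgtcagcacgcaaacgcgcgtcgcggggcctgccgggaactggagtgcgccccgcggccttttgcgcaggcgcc
MAN1B1-AS1: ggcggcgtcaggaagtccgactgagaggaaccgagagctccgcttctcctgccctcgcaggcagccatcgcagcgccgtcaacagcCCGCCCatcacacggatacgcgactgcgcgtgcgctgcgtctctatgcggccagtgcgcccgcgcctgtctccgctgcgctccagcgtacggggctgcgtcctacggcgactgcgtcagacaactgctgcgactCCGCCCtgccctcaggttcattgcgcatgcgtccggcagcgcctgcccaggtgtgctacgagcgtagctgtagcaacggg
The SAP30L-AS1 window shared 274 of its 300 bases with the promoter window of SAP30L on the other strand. MAN1B1-AS1 shared 267 bases with that of MAN1B1 and SRRM2-AS1 shared 137 bases with that of SRRM2, whereas FBXL19-AS1 shared none with that of FBXL19, whose start lies 214 bases away. A GC box was found in all 4 windows, once in FBXL19-AS1 and 4 times in SAP30L-AS1. A CCAAT box was found in SAP30L-AS1 alone of these, in 2 copies.

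RefSeq promoter windows were found for 258 members. Their mean GC content was 62.7%, against 57.2% in 27305 windows of all genes, and it was higher in the antisense rows (64.6% in 185) than in the LINC rows (57.9% in 73). A GC box on either strand lay in 58.5% of the members' windows and in 44.6% of all windows, and a CCAAT box in 41.9% and 35.7%. The TATA motif, searched as TATAAA on both strands, was found in 7.36% of the members' windows and in 12% of all windows, and again the kinds differed, with 16.4% of LINC windows and 3.78% of antisense windows. Among members that rose, 15 of 25 windows held a GC box and 10 a CCAAT box, and among members that fell these were 12 and 8 of 23. A match describes the letters in this window and was not tested as a binding site.

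The libraries were primed at the poly(A) tail, so a row is counted at its 3ʹ end, and the annotated ends of 3 members that fell are printed for that reason. Each line below is the last 50 bases of a GENCODE 44 transcript, and capitals mark a polyadenylation signal (AATAAA or ATTAAA). EP300-AS1 has another transcript, of 320 bases, whose last 50 bases hold neither.
PRR34-AS1: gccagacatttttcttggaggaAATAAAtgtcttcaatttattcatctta
EP300-AS1: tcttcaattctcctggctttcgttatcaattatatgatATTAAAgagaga
IDH1-AS1: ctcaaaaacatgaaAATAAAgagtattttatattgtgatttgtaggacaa
Such a signal lay in the last 50 bases of at least 1 transcript in 274 of 325 members with GENCODE transcripts (84.3%). By call it lay in 25 of 30 members that rose, 19 of 24 that fell and 210 of 248 that were not called. The share was 91.0% over all genes tested and 75.2% over the 1101 LINC and antisense rows that had no count in any library. Because each transcript gives a tag at its end, levels (CPM, counts in proportion to the TMM-adjusted total of the library) were not divided by length.

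The gene totals of the 6 libraries ranged from 3394672 to 7271771 counts, and 1 count was worth 0.131 to 0.310 CPM. Reads on no gene are given as a share of reads on genes, on no gene or ambiguous, without reads that were not aligned. They made up between 32.5% and 34.6% in the control libraries and between 35.6% and 39.5% in the Dox libraries. Their part in the results was not tested. The row of ABHD5, the gene that the transgene carries, was at 63.5, 58.0 and 62.8 CPM in the libraries without Dox and at 125.9, 130.8 and 91.7 CPM with Dox. Its log2 fold change was 0.91 with a standard error of 0.15 (adjusted p = 1.98e-04), and each library with Dox was above each library without. Rows are counted at transcript ends, and the end of the transgene mRNA is not given in the sources used here. The row does not separate that mRNA from the cells' own ABHD5 mRNA. How much transgene mRNA it counts was not tested, so its change is not read as the size of the induction. Here and below, the adjusted p comes from the quasi-likelihood test of edgeR, with the Benjamini-Hochberg method applied over all 12233 genes that passed the filter on low counts, and a gene is said to rise or fall only where it is under 0.05.

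Members were sparse. Their mean count over the 6 libraries ran from 10 to 2746.7 with a median of 27.8, against a median of 153.5 over all genes tested, and 218 of the 333 members had a mean under 50 counts while 49 reached 100. Together they held 0.519%, 0.502% and 0.509% of the gene counts without Dox and 0.546%, 0.570% and 0.554% with Dox. These shares did not overlap between the conditions, at 0.510 ± 0.00834% (SD, n = 3) without and 0.556 ± 0.0122% (SD, n = 3) with Dox. The 2-sided exact permutation p was 0.1, the smallest that 3 against 3 libraries allow. More members had a mean under 10 counts without Dox (48) than with Dox (10), and the part of this in the shares was not tested. The ratio of the mean shares was 0.12 on the log2 scale. With library totals as the scale, as in these shares, all genes tested had a median log2 fold change of 0.14. Without the most abundant member, the difference fell from 0.0462 to 0.0329 percentage points.

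The members with the most counts are given first. LRRC75A-AS1, a host of small nucleolar RNAs now named SNHG29, was the most abundant at 554.0, 541.2 and 495.4 CPM without Dox and 625.4, 596.9 and 624.6 CPM with Dox. It stood higher in each library with Dox, with a log2 fold change of 0.22 (adjusted p = 0.203), and passed the test with library totals as the scale alone (0.34, adjusted p = 0.0424). FGD5-AS1 had 280.1 ± 15.5 CPM (SD, n = 3) without Dox and 233.0 ± 28.1 with Dox, and OIP5-AS1 had 263.2 ± 45.7 and 217.5 ± 23.4. Neither passed the test (log2 fold changes of -0.27 and -0.28, adjusted p = 0.137 and 0.167). LINC00674 and OTUD6B-AS1 had log2 fold changes of 0.00 and 0.07, and their libraries overlapped.

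The question of the design is which of these transcripts differ between cells with and without Dox. Of the 333 members, 310 passed the filter and were tested, and 23 did not. Changes were called in 57 of 310 (18.4%), where 25.5% of all genes tested were called. The calls were 30 rises and 27 falls, or 38 rises and 18 falls with library totals as the scale, and 85 members had an unadjusted p under 0.05. Over all genes tested, 11.9% rose and 13.7% fell. With a mean of at least 10 counts required in both conditions, 46 of 272 members tested were called (16.9%), as 21 rises and 25 falls. Rises of at least 2-fold were seen in 17 members and falls of at least 2-fold in 13. Shares over all genes are not given here for the 2-fold counts or the unadjusted p, so neither is read as a trait of the members. With 1 library left out the number of falls dropped to 15 without the first and 16 without the second control library, to 13 without the first and 17 without the third Dox library. LINC rows were called in 20 of 90 (22.2%, 10 in each direction), and antisense rows in 37 of 220 (16.8%, 20 rises and 17 falls).

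**Figure D1:**
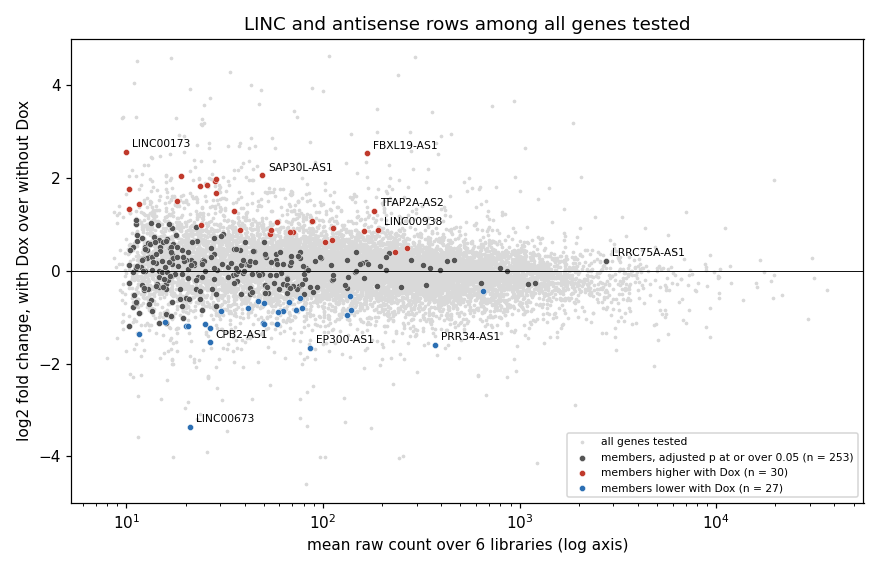
Log2 fold change with Dox over without Dox (vertical axis) against the mean raw count over the 6 libraries (horizontal log axis), with each of 12233 genes tested in light grey and the 310 members tested coloured by their call. The 30 members that rose and the 27 that fell lie on both sides of 0 over nearly the whole range of counts, and 17 genes with a log2 fold change beyond 5 are not drawn.

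Read against genes with like counts, the members' share was under that of all genes by over 1.5 times in the sparsest group alone. At a mean of 10 to under 20 counts, 8 of 106 members were called (7.55%) and 16.3% of all genes tested. From 20 to under 50 counts the members' share was 21.3% (19 of 89) beside 18.9%, and from 50 to under 100 counts it was 24.2% (16 of 66) beside 22.6%. At 100 counts or more it was 28.6% (14 of 49) beside 29.1%. The members' median log2 fold change was 0.07, close to the 0.02 of all genes tested, and 170 of 310 lay above 0. In 48 members the mean was under 10 counts without Dox, of which 9 were called, and in 10 it was under 10 counts with Dox, of which 2 were called: such members entered through the other condition. The libraries with Dox lay wholly above those without in 51 members (16.5%, beside 19% of all genes tested) and wholly below in 52 (16.8%, beside 20.5%).

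**Figure D2:**
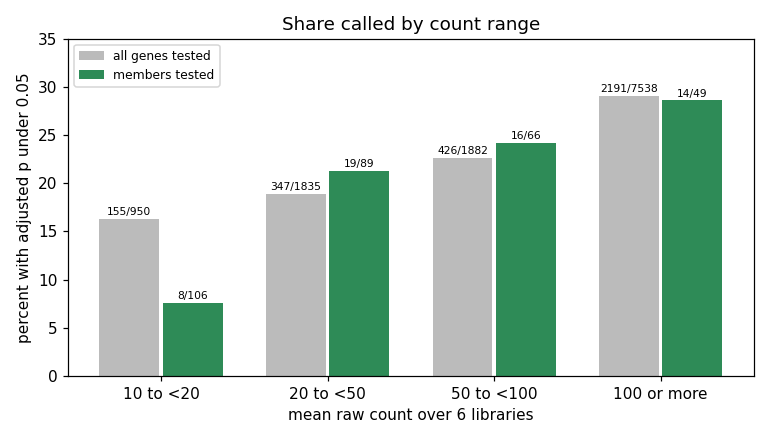
Percent of genes with adjusted p under 0.05 (vertical axis) by mean raw count over the 6 libraries, for all genes tested and for the members. Both bars climb with the count, and the members' bar is under that of all genes by over 1.5 times at 10 to under 20 counts alone (7.55% against 16.3%).

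The members nearest the limit of 10 counts show how little such rows carry. GTSE1-AS1 had 6, 7 and 13 counts without Dox and 16, 5 and 13 with Dox, and did not pass the filter. LINC00173, also at a mean of 10 counts, had 1, 1 and 5 counts without Dox and 17, 10 and 26 with Dox. Just outside were UBOX5-AS1 at a mean of 9.83 counts and LINC01547 and PSMD6-AS2 at 9.67.

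Among the antisense rows that rose, FBXL19-AS1 stood out in size and evenness. It lies on the minus strand of hg38 at chr16:30919319-30923269, head to head with FBXL19, which encodes an F-box protein that binds unmethylated CpG DNA. FBXL19-AS1 had 11, 7.44 and 10.3 CPM without Dox and 59.1, 56.2 and 53.9 CPM with Dox. The conditions did not overlap and the libraries with Dox lay within a narrow range. The rise was 5.80-fold (log2 fold change of 2.54 with a standard error of 0.18, adjusted p = 1.54e-08), the smallest adjusted p of any member. Under 13 alternatives it stayed between 2.4 and 2.66 and was called in each.

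SAP30L-AS1, at chr5:154325568-154445850 on the minus strand, starts 147 bases from SAP30L, a subunit of the Sin3 corepressor complex. It was at 2.87, 4.65 and 3.49 CPM without Dox and at 13.3, 13.6 and 18 CPM with Dox. All libraries with Dox were higher (log2 fold change of 2.06 with a standard error of 0.28, adjusted p = 3.11e-05). SRRM2-AS1, at chr16:2737076-2752600 on the minus strand, starts 26 bases from SRRM2, which encodes a scaffold protein of nuclear speckles. Its libraries held 2.61, 2.48 and 2.79 CPM without Dox and 9.13, 7.51 and 8.93 CPM with Dox, again without overlap (log2 fold change of 1.69 with a standard error of 0.31, adjusted p = 6.15e-04).

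TFAP2A, the gene of the transcription factor AP-2α, has 2 antisense members, which share it as a sense gene and are not separate cases. TFAP2A-AS1, at chr6:10409340-10416446 on the plus strand, was at 2.35, 2.48 and 2.27 CPM without Dox and at 9.57, 11.7 and 7.36 CPM with Dox. This was a 3.94-fold rise (log2 fold change of 1.98 with a standard error of 0.33, adjusted p = 2.55e-04). TFAP2A-AS2, at chr6:10404502-10407928, was at 19.9, 19.9 and 22.3 CPM without Dox and 46.1, 48.7 and 57.5 CPM with Dox, with a smaller log2 fold change of 1.29 (adjusted p = 1.31e-05). Neither overlapped between the conditions.

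Among the other antisense rows that rose were PAXIP1-AS2, GATA6-AS1 and NR2F2-AS1. PAXIP1-AS2, at chr7:154928460-154952188, is named for PAXIP1, a protein of the DNA damage response and of histone methyltransferase complexes, and had 2.09, 1.86 and 2.27 CPM without Dox and 6.52, 10.3 and 6.31 CPM with Dox. Its log2 fold change was 1.83 (adjusted p = 0.00103), while the second antisense member of that gene, PAXIP1-AS1, had a log2 fold change of -0.33 (adjusted p = 0.162). GATA6-AS1, head to head with the transcription factor gene GATA6, had 2.61, 1.55 and 2.09 CPM without Dox and 3.04, 8.35 and 11 CPM with Dox. The first Dox library lay close to the control libraries, and the rise had a log2 fold change of 1.85 with a standard error of 0.44 (adjusted p = 0.00506). NR2F2-AS1, which starts 1423 bases into the gene of the nuclear receptor COUP-TFII, was at 0.261, 1.24 and 1.22 CPM without Dox and at 3.48, 3.90 and 2.63 CPM with Dox (log2 fold change of 1.77, adjusted p = 0.0148). Without the first control library, which held 1 count, the log2 fold change of NR2F2-AS1 was 1.37 and its call was lost (adjusted p = 0.0918). PAXIP1-AS2, GATA6-AS1 and NR2F2-AS1 each had a mean under 10 counts without Dox and entered through the Dox libraries.

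Of the intergenic rows, LINC00173 had the largest rise, on few counts. At chr12:116533422-116536518 on the plus strand, it was at 0.261, 0.310 and 0.873 CPM without Dox and at 3.70, 2.78 and 3.42 CPM with Dox. The 3 control libraries together held 7 counts, so LINC00173 reached the limit of 10 counts through the Dox libraries. The log2 fold change was 2.57 with a standard error of 0.53 (adjusted p = 0.00161) and ran from 2.28 to 3.43 under 12 alternatives, all of which kept the call. LINC01024, at chr5:140071312-140109274, rose from 1.83, 2.17 and 0.698 CPM to 5.65, 6.12 and 6.31 CPM (log2 fold change of 2.05, adjusted p = 0.00129). LINC01139 had 1.31, 0.930 and 3.49 CPM without Dox and 5.22, 4.17 and 13.5 CPM with Dox, so the third library of each condition was the highest. Its log2 fold change of 1.93 (adjusted p = 0.00769) dropped to 1.15 without the third Dox library and was no longer called (adjusted p = 0.0873). LINC01024 and LINC01139 also had a mean under 10 counts without Dox and entered through the Dox libraries. LINC00630 and LINC00672 had log2 fold changes of 1.43 and 1.34 (adjusted p = 0.0296 and 0.0395). Both lost the call under several alternatives, with the libraries left out included: LINC00630 was called under 7 of 12 and LINC00672 under 3 of 11, with adjusted p up to 0.132 and 0.154. LINC00630 lost it without the second or the third library of either condition, and LINC00672 without any 1 of the control libraries or without the first or second Dox library. LINC00672 was not tested without the third Dox library.

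**Figure D3:**
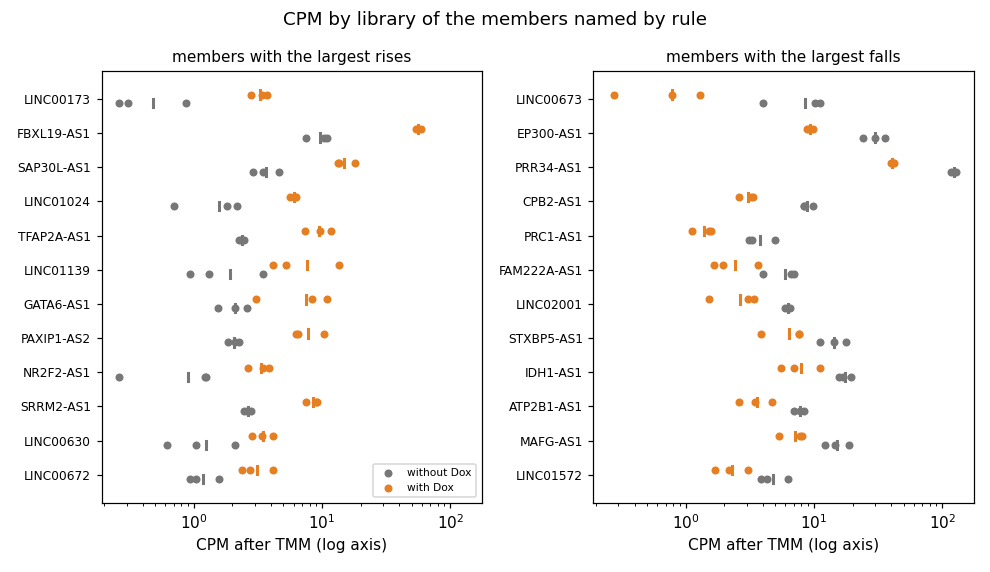
CPM after TMM scaling (horizontal log axis) in each library of the 12 members with the largest rises (left) and the 12 with the largest falls (right) among members called and not overlapping; points are libraries and short bars are means (n = 3). FBXL19-AS1 moved from 9.57 to 56.4 CPM on average and PRR34-AS1 from 123.1 to 40.9, whereas LINC00173, NR2F2-AS1 and LINC00673 stood at under 1 CPM on average in 1 condition.

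Among falls, LINC00673 had the largest. It lies on the minus strand at chr17:72403322-72592804, and the nearest coding start is that of the transcription factor gene SOX9. Its libraries held 11.2, 4.03 and 10.1 CPM without Dox and 1.31, 0.278 and 0.788 CPM with Dox, from 43, 13 and 58 counts to 6, 1 and 6. The control libraries varied by more than 2-fold, yet each lay above all libraries with Dox. LINC00673 reached the limit of 10 counts through the control libraries. The fall was 10.3-fold (log2 fold change of -3.36 with a standard error of 0.48, adjusted p = 5.86e-05) and was called under all of 12 alternatives, between -3.76 and -3.03.

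PRR34-AS1 was the most abundant of the rows with a large fall. It lies on the plus strand at chr22:46053705-46057210 and its libraries were tight, at 124.3, 116.6 and 128.5 CPM without Dox and at 41.8, 39.8 and 41.2 CPM with Dox. This was a 3.01-fold fall (log2 fold change of -1.59 with a standard error of 0.13, adjusted p = 7.33e-08). EP300-AS1, at chr22:41174591-41197508 on the minus strand, begins beyond the far end of EP300, the gene of a histone acetyltransferase. It was at 29.8, 35.7 and 24.1 CPM without Dox and at 9.13, 8.91 and 9.85 CPM with Dox (log2 fold change of -1.66 with a standard error of 0.21, adjusted p = 1.34e-05). CPB2-AS1, which starts 262 bases from ZC3H13 and is named for the carboxypeptidase gene CPB2, fell from 8.89 ± 0.898 to 3.08 ± 0.391 CPM (SD, n = 3), a log2 fold change of -1.54 (adjusted p = 0.00109).

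Among the antisense rows that fell were IDH1-AS1, STXBP5-AS1 and MAFG-AS1. IDH1-AS1 starts inside IDH1, which encodes the cytosolic isocitrate dehydrogenase. It was at 17.0, 15.8 and 19.6 CPM without Dox and at 11.1, 5.57 and 6.96 CPM with Dox (log2 fold change of -1.15, adjusted p = 0.00254). STXBP5-AS1, head to head with the syntaxin-binding protein gene STXBP5, fell from 14.5 ± 3.32 to 6.38 ± 2.15 CPM (log2 fold change of -1.15, adjusted p = 0.00486). MAFG-AS1, which starts 94 bases from the gene of a small Maf transcription factor, fell from 15.1 ± 3.21 to 7.07 ± 1.47 CPM (log2 fold change of -1.12, adjusted p = 0.00362). These 3 did not overlap between the conditions and were called under all of 13 alternatives.

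Other falls were called less firmly. ATP2B1-AS1, beside the start of a plasma membrane calcium pump gene, was at 7.84, 8.37 and 6.98 CPM without Dox and at 3.48, 4.73 and 2.63 CPM with Dox, with a log2 fold change of -1.14 (adjusted p = 0.0142) that became -0.91 without the third Dox library (adjusted p = 0.0591). PRC1-AS1 starts inside the gene of PRC1, a protein that crosslinks microtubules in cell division, and had 3.13, 4.96 and 3.32 CPM without Dox and 1.52, 1.11 and 1.58 CPM with Dox. Its log2 fold change was -1.35 (adjusted p = 0.0226), and the call was kept under 7 of 12 alternatives and lost without the second or the third control or the first or second Dox library, with adjusted p up to 0.115. FAM222A-AS1 and LINC02001 had log2 fold changes of -1.19 and -1.18 (adjusted p = 0.0263 and 0.0198), and each was called under 8 of 12 alternatives. FAM222A-AS1 lost the call without the first or the third control or the first or second Dox library, and LINC02001 without any 1 of the control libraries or the first Dox library, with adjusted p up to 0.102 and 0.0841. LINC01572, with a log2 fold change of -1.10 (adjusted p = 0.0431), was called under 5 of 13 and lost the call without any 1 of the controls or without the first or the third Dox library, with adjusted p up to 0.204.

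Annotation placed 329 of the 333 members, 322 of them in GENCODE 44 by symbol or by the name RefSeq now uses. GENCODE gives the type lncRNA for 303 and protein_coding for 10, among which LINC00998 is SMIM30, LINC00116 is MTLN and LINC01207 is SMIM31, all genes of small proteins. Of these 10, 5 rose and 1 fell, beside calls in 25.5% of all genes tested and 18.4% of the members tested. The fall was LINC01207, from 12.5, 5.89 and 6.81 to 2.39, 6.40 and 2.63 CPM, with overlap between the conditions (log2 fold change of -1.23, adjusted p = 0.0302), and was lost without the first control or the first or the third Dox library (adjusted p up to 0.197). The 5 that rose were FAM83H-AS1, LINC00094, LINC00672, LINC01125 and MMP24-AS1, with log2 fold changes of 0.61, 0.84, 1.34, 0.99 and 0.50. Each lost its call with at least 3 of the 6 libraries left out in turn: FAM83H-AS1 without any but the second Dox library (adjusted p up to 0.182), LINC00094 without the third control or the first or the third Dox library (0.146), LINC01125 without the second or the third control or the first or second Dox library (0.150), MMP24-AS1 without the first or second control or the third Dox library (0.0654), and LINC00672 as above. These genes and those named in the rest of the account outside the 12 largest rises, the 12 largest falls and the 6 most abundant members, their sense genes and the listed genes were chosen after their values were seen.

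Antisense rows were next set beside their sense genes. The sense gene was in the table for 233 of 235 antisense rows, and both genes were tested in 191 pairs, with TFAP2A, PAXIP1 and PTOV1 standing for 2 antisense rows each. Sense genes were called in 54 pairs (28.3%, beside 25.5% of all genes tested) and antisense rows in 33. Both were called in 18 pairs, the antisense row alone in 15, the sense gene alone in 36 and neither in 122. Of the 18, both rose in 9, both fell in 6 and the directions were opposite in 3. The 15 pairs that moved in the same direction became 9 without the third control library and 9 without the first Dox library. Over the 191 pairs the log2 fold changes had the same sign in 120, with Pearson r = 0.37 and Spearman rho = 0.33, and r = 0.17 over the 173 pairs that were not both called. These describe pairs that share their libraries.

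**Figure D4:**
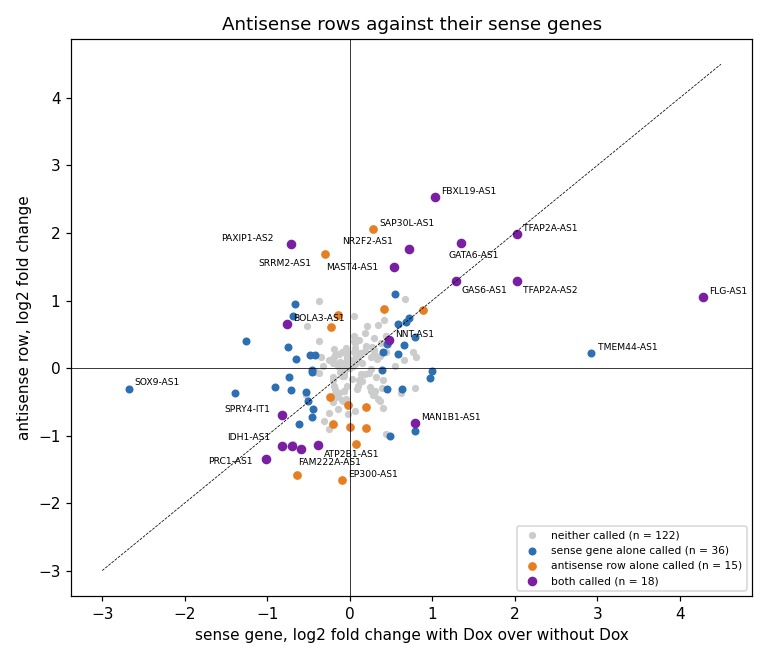
Log2 fold change of the antisense row (vertical axis) against that of its sense gene (horizontal axis), with Dox over without Dox, for 191 pairs in which both were tested; the dashed line marks equal change. Of 18 pairs with both called, 15 lie in the quadrants of like sign, and PAXIP1-AS2, BOLA3-AS1 and MAN1B1-AS1 lie in the others.

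Pairs were also grouped by the arrangement of the genes. In 49 pairs the antisense RNA starts inside the sense gene more than 1000 bases from its start, and 38 of these had the same sign, with r = 0.64. All 6 of those with both called had the same direction. TFAP2A-AS1 and TFAP2A-AS2 are both among the 6 and share the sense gene TFAP2A, so these are not 6 separate cases. That gene also enters the r and the count of like signs more than once. In 87 pairs the starts lie head to head within 1000 bases, and 50 had the same sign, with r = 0.30 and 5 of 7 pairs with both called in the same direction. In 50 pairs the antisense RNA begins beyond the end of the sense gene, and 30 had the same sign, with r = 0.30 and 3 of 4 in the same direction. The difference between these arrangements was not tested. Annotated sense exons cover a median of 9.22% of the antisense exons in the first arrangement, 0.780% in the second and 6.55% in the third. The rest of the 191 pairs were 4 on the same strand, 1 of them with the same sign, and 1 that was not placed.

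Whether reads were assigned by strand is not stated, and the sources name 2 versions of the kit that read opposite strands, so reads where exons of both strands overlap are uncertain. The values that bear on this are given with the pairs. In 106 pairs with 1 to 50% of the antisense exons under sense exons, 70 had the same sign (r = 0.45), and in 73 pairs with under 1% it was 42 (r = 0.19). In the 8 pairs with over 50% it was 5, and no antisense row was called in these. Over all opposite-strand exons, 13 members had more than 50% of their exonic bases covered, 1 of them more than 90%, and 123 had under 1%. The share of rows with a member name that reached 10 counts was 8.33% of 12 above 90% coverage, 19.7% of 61 from 50 to 90%, 22.2% of 838 from 1 to 50% and 8.49% of 1448 under 1%.

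Pairs that start head to head and rose together include those of FBXL19 and GATA6, in which the antisense row had the larger log2 fold change. FBXL19 had 6.53, 6.51 and 5.76 CPM without Dox and 13.9, 10.9 and 13.3 CPM with Dox (log2 fold change of 1.03, adjusted p = 0.00469), 1.5 log2 units less than FBXL19-AS1. The log2 ratio of FBXL19-AS1 to FBXL19 counts was 0.74, 0.19 and 0.83 without Dox and 2.08, 2.36 and 2.02 with Dox, without overlap, and 2.48% of its exonic bases lie under sense exons. GATA6 rose from 4.25 ± 0.371 to 10.6 ± 2.14 CPM (log2 fold change of 1.35, adjusted p = 0.00175), 0.51 log2 units less than GATA6-AS1, and here the ratios overlapped.

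In 2 others that share a start region the sense gene did not pass the test. SAP30L was at 41.0, 43.1 and 49.9 CPM without Dox and at 57, 59.3 and 48.9 CPM with Dox, with a log2 fold change of 0.29 (adjusted p = 0.165) beside 2.06 for SAP30L-AS1. The counting ratio of the pair did not overlap between conditions, at log2 values of -3.78, -3.17 and -3.80 without Dox and -2.09, -2.11 and -1.44 with Dox. SRRM2 was at 631.3, 714.5 and 692.3 CPM without Dox and at 578.0, 597.2 and 484.3 CPM with Dox (log2 fold change of -0.30, adjusted p = 0.0982). SRRM2-AS1 stood at log2 ratios of -7.85, -8.08 and -7.91 to SRRM2 without Dox and -5.97, -6.29 and -5.75 with Dox. No annotated sense exon covers the exons of SAP30L-AS1 or SRRM2-AS1.

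The 3 pairs that moved in opposite directions include 2 that start head to head. MAN1B1-AS1 was at 27.2, 23.9 and 15.7 CPM without Dox and at 12.2, 13.1 and 12.4 CPM with Dox (log2 fold change of -0.81, adjusted p = 0.0123), and the call was lost without the first control library (-0.65, adjusted p = 0.0829). MAN1B1, the gene of an endoplasmic reticulum mannosidase that starts 40 bases away, was at 18.3, 18.3 and 17.8 CPM without Dox and at 30.2, 28.1 and 35.3 CPM with Dox (log2 fold change of 0.80, adjusted p = 0.00239). The antisense row thus had the higher level in 2 of 3 control libraries and the lower level in all libraries with Dox. BOLA3-AS1, which starts 95 bases from a gene of mitochondrial iron-sulfur cluster assembly, rose from 17.6 ± 0.778 to 28 ± 2.25 CPM (log2 fold change of 0.66, adjusted p = 0.00948), while BOLA3 fell from 273.5 ± 20.8 to 162.3 ± 4.58 CPM (log2 fold change of -0.76, adjusted p = 1.65e-04). PAXIP1 fell from 117.3, 99.5 and 112.9 CPM to 63.3, 72.4 and 66.2 CPM (log2 fold change of -0.71, adjusted p = 5.53e-04), opposite to PAXIP1-AS2, which begins beyond the end of the gene.

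**Figure D5:**
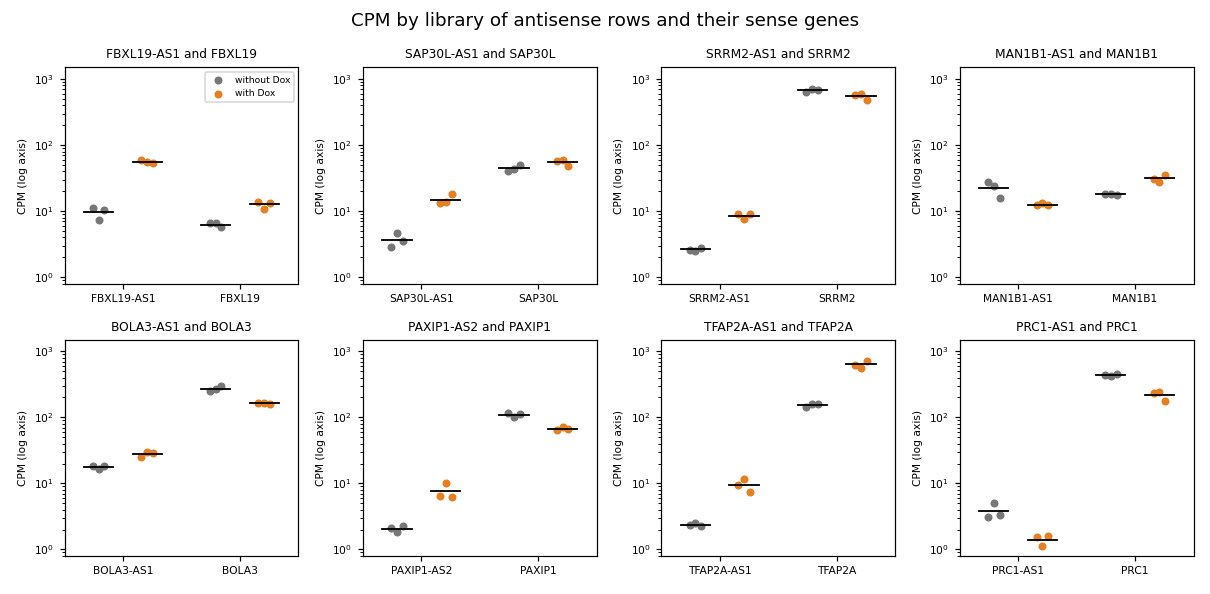
CPM after TMM scaling (vertical log axis) in each library for 8 antisense rows and their sense genes, without Dox (grey) and with Dox (orange); points are libraries and bars are means (n = 3). In the MAN1B1, BOLA3 and PAXIP1 panels the antisense row and the sense gene moved in opposite directions, and in the FBXL19, TFAP2A and PRC1 panels they moved in the same direction.

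The 6 pairs with both called in which the antisense RNA starts inside the sense gene are those of TFAP2A, PRC1, IDH1, NR2F2 and MAST4, each with the same direction in both genes. TFAP2A rose from 142.9, 161.6 and 162.2 CPM to 631.3, 567.4 and 703.4 CPM (log2 fold change of 2.03, adjusted p = 5.05e-09), beside 1.98 for TFAP2A-AS1 and 1.29 for TFAP2A-AS2. Sense exons cover 25.9% and 27.5% of the exonic bases of these antisense RNAs. PRC1 fell from 432.6, 421.8 and 454.2 CPM to 232.5, 238.8 and 176.7 CPM (log2 fold change of -1.02, adjusted p = 2.68e-05), beside -1.35 for PRC1-AS1, of whose exonic bases 42.1% lie under exons of the other strand. IDH1 fell from 283.9 ± 17.1 to 161.0 ± 11.8 CPM (log2 fold change of -0.82, adjusted p = 8.54e-05) and NR2F2 rose from 63.4 ± 0.983 to 104.4 ± 8.86 CPM (log2 fold change of 0.72, adjusted p = 4.43e-04), each with a smaller log2 fold change than its antisense row. MAST4-AS1 and the kinase gene MAST4 had log2 fold changes of 1.49 and 0.53 (adjusted p = 0.0266 and 0.0262). MAST4-AS1 lost its call without the second or the third control or the second Dox library (adjusted p up to 0.156), and MAST4 without the second or the third control or the first or the third Dox library (up to 0.105).

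Of the remaining pairs with both called, FLG-AS1 and FLG were the most unequal. FLG, the gene of the skin barrier protein filaggrin, had 0.522, 0.310 and 0.873 CPM without Dox and 15.7, 12 and 10.3 CPM with Dox, a log2 fold change of 4.28 (adjusted p = 6.90e-07), while FLG-AS1, now named CCDST, had 1.06 (adjusted p = 0.00321). GAS6, a ligand of receptor tyrosine kinases, and GAS6-AS1 rose with log2 fold changes of 1.28 and 1.29, of which the first was lost without the second control library (1.12, adjusted p = 0.0521) and the second without the third (0.95, adjusted p = 0.0623). NNT, the mitochondrial transhydrogenase, and NNT-AS1 had log2 fold changes of 0.47 and 0.42, called under 8 and 6 of 13 alternatives. NNT lost its call without any control library or without the first or second Dox library (adjusted p up to 0.0875), and NNT-AS1 without the second or the third control or the first or the third Dox library (up to 0.184). STXBP5 fell with a log2 fold change of -0.69, smaller than that of its antisense row. ATP2B1 and FAM222A had -0.39 and -0.59, called under 8 and 9 of 13 alternatives. Both lost the call with library totals as the scale and without the third control or the first or the third Dox library, and ATP2B1 also without the first control library, with adjusted p up to 0.104 and 0.176. SPRY4-IT1, a transcript named as intronic to the signalling inhibitor gene SPRY4, had a log2 fold change of -0.70 (adjusted p = 0.0450) beside -0.82 for SPRY4, and could not be placed. It was called under 4 of 13 alternatives and lost the call without any library but the second with Dox (adjusted p up to 0.174), while SPRY4 lost it without the first control or the third Dox library (up to 0.0582).

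Among the antisense rows with the largest falls, the sense genes EP300, MAFG and PRR34 did not pass the test. EP300 was at 153.9, 153.5 and 145.6 CPM without Dox and at 139.8, 147.8 and 135.8 CPM with Dox (log2 fold change of -0.10, adjusted p = 0.591). MAFG had a log2 fold change of 0.08 (adjusted p = 0.776). PRR34 had few counts, at 5.4 ± 0.542 CPM without Dox and 3.72 ± 1.87 with Dox (log2 fold change of -0.64, adjusted p = 0.257), so its antisense row was the more abundant of the pair. In 29 of 191 pairs the antisense row had more counts than the sense gene.

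Large changes of sense genes were also seen beside antisense rows that did not pass the test. SOX9 had a log2 fold change of -2.68 (adjusted p = 4.72e-10) and SOX9-AS1 one of -0.30 (adjusted p = 0.385), from 18, 13.3 and 14.1 CPM without Dox to 8.70, 12 and 15.5 CPM with Dox. TMEM44 had 2.93 and TMEM44-AS1 0.22 (adjusted p = 0.737). OIP5, a centromere protein gene, had -0.90 (adjusted p = 4.60e-04) beside -0.28 for the abundant OIP5-AS1.

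LINC rows were set beside the coding gene with the nearest start. That gene was tested for 57 LINC rows tested, and the signs were alike in 33. Of these pairs, 12 LINC rows and 24 neighbouring genes were called, where 25.5% of all genes tested were. Both were called in 8, of which 5 had the same direction. LINC00673 and SOX9 both fell, although the starts are 471784 bases apart. LINC01184, whose start is 594 bases from that of the chloride cotransporter gene SLC12A2, went from 13.1, 18.3 and 20.8 CPM without Dox to 9.57, 12.5 and 7.62 CPM with Dox. The libraries did not overlap (log2 fold change of -0.86, adjusted p = 0.0159), and SLC12A2 fell by 2.9 on the log2 scale. The call of LINC01184 was lost without the third control or the first or the third Dox library (adjusted p up to 0.0962). LINC00938 rose from 26.7 ± 2.22 to 49.6 ± 2.80 CPM (log2 fold change of 0.89, adjusted p = 2.95e-04) together with ARID2, a chromatin remodelling subunit 1846 bases away, at 0.73, and LINC01024 rose together with PURA at 0.56. The opposite was seen for LINC01521, which fell from 38.6 ± 7.44 to 19.9 ± 1.71 CPM (log2 fold change of -0.95, adjusted p = 6.94e-04) with a rise of PATZ1 at 0.71, and for LINC00324, which rose with a log2 fold change of 0.91 (adjusted p = 0.00360) while the mitotic kinase gene AURKB, 13443 bases away, was at -1.37.

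Long noncoding RNAs with other names, which the symbol rule leaves out, were taken from a list of 57. Of 34 tested, 8 rose and 9 fell (50% called, beside 25.5% of all genes tested), with a median log2 fold change of -0.15. The list was chosen with earlier results of these data known, so its share of calls was not read as an excess. The calls numbered 9 without the first control or the first Dox library and 11 without the third Dox library. Those lost without the first control library were CRNDE, DLEU1, PCAT7, RN7SK, SNHG8, TP53TG1, TUG1 and ZFAS1. PCA3, a prostate cancer marker RNA, fell from 20.9, 13 and 9.25 CPM to 1.52, 1.11 and 1.18 CPM (log2 fold change of -3.46). DRAIC fell with a log2 fold change of -1.46, and HOTAIRM1, from the HOXA cluster, rose from 20.4, 19.5 and 18.9 CPM to 45.7, 44.2 and 51.5 CPM (log2 fold change of 1.27). Each had libraries that did not overlap.

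Genes that act on such transcripts were looked at through lists of the nuclear exosome and its adaptors, of the Integrator complex and of the cleavage and polyadenylation factors. Of 29 exosome and adaptor genes tested, 2 rose and 5 fell (24.1%, beside 25.5% of all genes tested), with a median log2 fold change of -0.17. With library totals as the scale, 3 rose and 3 fell. The rises in the main fit were NRDE2 and ZFC3H1. NRDE2 lost its call without the first control or the first or second Dox library (adjusted p up to 0.0910). ZFC3H1 lost its call without any 1 of the control libraries or without the second Dox library (adjusted p up to 0.120). The calls numbered 4 without the first control library and 3 without the second control or the first Dox library. The 3 with the smallest adjusted p were EXOSC6, SRRT and EXOSC2, with log2 fold changes of -0.71, -0.50 and -0.60. Without the second control library SRRT and EXOSC2 lost their calls, and EXOSC2 also without the first Dox library (adjusted p up to 0.0553 and 0.0826). The exosome core subunit EXOSC6 went from 75.8, 74.4 and 71.0 CPM to 47.6, 51.5 and 37.2 CPM (adjusted p = 0.00171). None of 14 Integrator genes was called by edgeR's test, 1 of them, INTS3, had an unadjusted p under 0.05, DESeq2 called 0 and library totals as the scale gave 1 call, and their median log2 fold change was 0.13. Among 24 cleavage and polyadenylation genes, RBBP6 rose and CPSF4 and CSTF2 fell, with log2 fold changes of 0.43, -0.53 and -0.56. The calls were lost for RBBP6 without the first or second control or the second Dox library (adjusted p up to 0.114), for CPSF4 without the first control library (0.0598), and for CSTF2 without the second control library and with library totals as the scale (up to 0.0589).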

How the data were processed

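RNA of 22Rv1-ABHD5 cells was sequenced from its 3ʹ ends in 3 Control and 3 OE libraries. The authors aligned the reads (100 bp, single-end) to hg38 using STAR, and raw counts per gene symbol were deposited for all libraries. HTSeq and edgeR are also named in the submitters' processing notes. The annotation, and whether strand was used, are not given in the sources used here. Single-library files deposited by the authors hold a normalized signal of unstated scaling, which served as an alternative, and 27 of their rows carry another name.

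The counts were fitted in R 4.3.3 by edgeR 4.0.16, with TMM scaling, filterByExpr, the quasi-likelihood test, no block, and a Benjamini-Hochberg adjusted p under 0.05. Reads on no feature (32.5% to 39.5%) and ambiguous reads (3.05% to 3.37%) were left out, as shares of these reads and those on genes together. Replicates differed beyond sampling noise (chi-square over degrees of freedom, 4.21 to 12.6), and every library was kept as 1 sample. A limit of 3 counts was 0.394 to 0.930 CPM, for counting error only, as reads carry no molecular identifiers. The test was also run on simulated counts with far fewer changed genes than were called here, so that run is not used as support.

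The members and lists were chosen with earlier results of these data known. Named members were the 12 largest rises and 12 largest falls among called members without overlap, the 6 with the highest CPM, their sense genes, the 3 on each side of the limit of 10 counts, and in each list the 3 smallest adjusted p. Sense genes were found by the symbol before the suffix. Positions are of GENCODE 44 on hg38, to which 322 members were matched, 7 more were placed by RefSeq coordinates and 4 were not placed. Promoter windows are of RefSeq. A few genes and a sequence that these rules would name are not reported here. Alternatives were other scales, filters and member rules, DESeq2 1.42.0, limma 3.58.1 on log2(normalized value + 1), the replicate number as a block, and the removal of single libraries.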

Additional observations from a re-analysis of the deposited data

How the results depend on the processing

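With each library left out in turn, 38 to 52 members were called, of which 21 to 26 rose and 13 to 26 fell, and pairs with both genes called in the same direction numbered 9 to 11. Listed genes called ranged from 14 to 24 (27 with all libraries). DESeq2 called 45 members and the deposited normalized values 49. No called member changed its sign under any alternative. With library totals as the scale, the members' median log2 fold change was 0.19, while that of all genes moved from 0.02 to 0.14, and rises made up 65.7% of all calls in place of 46.4%. Requiring 10 counts in every library left 9 pairs with both called, 7 in the same direction, and fewer members tested. As the rule, a mean of at least 10 counts in both conditions left 46 called members, and a mean of at least 50 counts left 30. LINC rows alone gave 20 and antisense rows alone 37. The paired fit with the replicate number as a block called 60 members, 56 of them shared. Deviations of log CPM from the condition mean had correlations of -0.01, 0.23 and 0.09 between same-numbered libraries, so the numbers were not taken as pairs.

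The sign turned in genes that did not pass the test: with library totals as the scale, EP300 was at 0.024 and OTUD6B at 0.049, and without a filter LINC00674 was at -0.0091. With a library left out, log2 fold changes ranged from -0.071 to 0.076 for LINC00674, from -0.087 to 0.17 for OTUD6B-AS1, from -0.26 to 0.16 for OTUD6B, from -0.10 to 0.30 for MAFG and from -0.16 to 0.41 for UBOX5-AS1. The cause was not tested. At a mean of under 20 counts a value rests on few reads in each library, and a difference that was not called may not have been detectable at this depth.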
